A study of Homo sapiens with 6 samples.

Results

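Cyclin E1 (CCNE1), cyclin E2 (CCNE2), their kinase CDK2 and the phosphatase CDC25A make up the module that drives cells from G1 into S phase once cyclin D and its kinases CDK4 and CDK6 have acted. All 4 genes were measured, out of 19775 genes on the array, and 10 probe sets carried the symbol of a member, 0 of them shared with another gene. A gene is described by its brightest probe set, judged by the average of the 6 arrays, and its dimmer ones are given beside it. The cells were HCT116, a human colorectal carcinoma line, 3 arrays per group. The treated group received 30 nM of an siRNA pool against CDK4 together with 30 nM of an siRNA against CDK6. The control group received a non-targeting siRNA pool and a negative control siRNA, 30 nM each. All 6 cultures were transfected with the same lipid reagent and analysed 96 h afterwards. The labels speak of biological replicates without naming separate culture days, so the p-values reflect only how these arrays differ, which may be in part technical.

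In textbook outline, cyclin D bound to CDK4 or CDK6 begins to phosphorylate the retinoblastoma protein, which frees E2F transcription factors. E2F then raises transcription of CCNE1, CCNE2 and CDC25A. Cyclin E binds CDK2, CDC25A removes the inhibitory phosphates from that complex, and the active kinase phosphorylates the retinoblastoma protein further and starts DNA replication. Cyclin E and CDC25A proteins are short-lived, and their amounts are also set by degradation, which RNA values do not show.

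Promoter sequence from RefSeq (GRCh38.p14) was taken for 2 of the 4 members, CCNE1 and CDC25A, which were both higher after CDK4/6 siRNA. Their 250 bases before the start are shown so that the letters E2F is known to bind can be looked for. The search for members left out 1 chromosome, so for a member on that chromosome a missing stretch does not mean that none was available. The CCNE1 stretch is chr19:29811741-29811990 on the plus strand and the CDC25A stretch is chr3:48188418-48188667 on the minus strand. Capitals mark matches, on either strand, to 3 motifs: E2F (TTTCCCGC, TTTGGCGC, TTTCGCGC or TTTGCCGC), the CCAAT box (CCAAT) and the GC box (GGGCGG). No matches of different motifs overlap in these stretches.
CCNE1: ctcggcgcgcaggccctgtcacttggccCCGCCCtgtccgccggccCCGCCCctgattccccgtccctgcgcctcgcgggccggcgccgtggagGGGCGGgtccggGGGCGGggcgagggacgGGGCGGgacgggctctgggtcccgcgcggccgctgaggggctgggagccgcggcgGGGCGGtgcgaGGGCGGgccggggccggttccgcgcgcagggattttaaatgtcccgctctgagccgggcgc
CDC25A: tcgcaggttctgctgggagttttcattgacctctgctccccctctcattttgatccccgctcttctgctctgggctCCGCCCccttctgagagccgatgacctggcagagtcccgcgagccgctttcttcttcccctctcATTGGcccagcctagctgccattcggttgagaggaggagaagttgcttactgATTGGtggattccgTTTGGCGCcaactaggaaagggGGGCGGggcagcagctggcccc
The CDC25A stretch held 1 E2F match, TTTGGCGC, 44 to 37 bases before the start, with 2 CCAAT boxes and 2 GC boxes. In the CCNE1 stretch there were 7 GC boxes, 0 E2F matches and 0 CCAAT boxes, and 81.2% of its bases were G or C, against 60.0% in CDC25A. Of 35116 promoter stretches of this length, 2.79% held an E2F match, 32.0% a CCAAT box and 42.6% a GC box. An E-box (CACGTG) and a CHR element (TTTGAA), searched on both strands, had 0 matches in both stretches and were held by 6.34% and 13.3% of all stretches. A match is a description of letters, and 0 matches says only that these letters are not in this window.

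Levels are log2 values made with RMA, so a difference of 1 is a doubling, and changes are CDK4/6 siRNA minus control siRNA. The fit was limma over all 19775 genes, and a gene was called changed at a Benjamini-Hochberg adjusted p under 0.05. Of all genes 26.8% were called, 14.0% higher and 12.9% lower, with a median change of -0.0011. Against that background 3 of the 4 members were called higher and 0 lower, and the members were chosen with these results known. The hybridisation spike-ins, control RNAs added to the arrays, had means of 10.24 to 10.27 on the control arrays and 10.08 to 10.18 on the CDK4/6 siRNA arrays. Scaling the arrays to them moved the median of all genes to 0.11, and 78.2% of called genes were then higher, against 52.0% as deposited. The scaling was applied to values already made with RMA, and hybridisation controls do not measure RNA per cell. It is used here only as another setting. CDK6 fell by 1.56 and CDK4 by 0.69, so each targeted mRNA was lowered and neither was removed (limma adjusted p = 7.19e-06 and 0.00043). The epithelial markers EPCAM, CDH1, KRT8, KRT18 and KRT19 had control means of 10.96 to 13.16, while the intestinal markers CDX2 and VIL1 had control means of 5.57 and 5.02. Of these 7 markers KRT8 and KRT18 rose, by 0.59 and 0.51, and CDH1 fell by 0.54, and among 14 markers of fibroblasts, leukocytes and endothelium COL1A1, with a mean level of 7.84, fell by 0.49 and the others did not pass. The arrays measure bulk RNA, in which more cells at G1/S and more of an mRNA per cell cannot be told apart.

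CCNE2 encodes a cyclin that, like cyclin E1, binds and activates CDK2. Its level was 7.97, 7.58 and 7.15 on the control arrays and 8.97, 9.18 and 9.15 on the CDK4/6 siRNA arrays. All CDK4/6 siRNA arrays lay above all control arrays, with 0.99 between the lowest treated and the highest control value. CCNE2 rose from 7.57 ± 0.41 to 9.10 ± 0.12 (SD, n = 3 each), a log2 change of 1.53 (SE 0.17, 95% interval 1.14 to 1.92) or 2.89-fold, with a limma adjusted p of 0.00035. By signed change it ranked 3 of 19775 genes. The other CCNE2 probe set, 211814_s_at, had levels of 5.40, 5.08 and 4.60 in controls and 6.71, 6.77 and 6.99 after CDK4/6 siRNA. It too did not overlap between groups, and it rose by 1.80 (SE 0.17), 3.48-fold (limma adjusted p = 0.00024 over all probe sets).

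CCNE1, the other E-type cyclin, stood at 8.54, 8.51 and 8.28 on the control arrays and at 9.64, 9.46 and 9.60 on the CDK4/6 siRNA arrays. The groups did not overlap, with a gap of 0.92 between them. It rose from 8.45 ± 0.14 to 9.57 ± 0.09 (SD, n = 3 each), a change of 1.12 (SE 0.083, 95% interval 0.93 to 1.31) or 2.18-fold (limma adjusted p = 7.15e-05). The second CCNE1 probe set, 242105_at, had control levels of 4.12, 4.03 and 4.03 and levels of 3.87, 4.13 and 3.98 after CDK4/6 siRNA. Its groups overlapped, and it gave -0.067 (95% interval -0.24 to 0.11, limma adjusted p = 0.66 over all probe sets). At a mean of 4.03 it lay at the 22.0th percentile of all probe sets by level. With the mean of both probe sets in place of the brighter, the CCNE1 change was 0.53 and was still called (limma adjusted p = 0.00029).

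CDC25A, the phosphatase that removes inhibitory phosphates from CDK2, had levels of 6.75, 7.03 and 6.70 in controls and 7.80, 7.71 and 8.05 after CDK4/6 siRNA. The lowest treated value was 0.68 above the highest control value. It rose from 6.83 ± 0.18 to 7.85 ± 0.17 (SD, n = 3 each), by 1.02 (SE 0.11, 95% interval 0.78 to 1.27) or 2.03-fold (limma adjusted p = 0.00025). Probe set 1555772_a_at, with 4.76, 4.47 and 4.30 in controls and 5.76, 5.58 and 5.72 after CDK4/6 siRNA, rose by 1.17 (SE 0.11). Probe set 204696_s_at, with 5.51, 5.42 and 5.20 in controls and 5.80, 5.68 and 5.74 after CDK4/6 siRNA, rose by 0.36 (SE 0.086). All 3 CDC25A probe sets therefore passed the threshold without overlap between groups, at sizes from 1.29-fold to 2.26-fold, and limma adjusted p over all probe sets was at most 0.018.

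CDK2, the catalytic subunit, did not pass the threshold. Its level was 9.59, 9.54 and 9.45 in controls and 9.62, 9.65 and 9.78 after CDK4/6 siRNA. The groups did not overlap, but only 0.025 lay between them, and 20.6% of all genes lay wholly above their controls and 20.3% wholly below. The means were 9.53 ± 0.07 and 9.68 ± 0.09 (SD, n = 3 each), a difference of 0.16 (SE 0.067, 95% interval 0.0034 to 0.31) or 1.11-fold, with a limma adjusted p of 0.13. On the brightest probe sets, the 95% intervals of CCNE1, CCNE2 and CDC25A lie wholly above that of CDK2. Those of the dimmer probe sets 204696_s_at of CDC25A (0.17 to 0.56) and 242105_at of CCNE1 (-0.24 to 0.11) do not. Under the spike-in scaling the CDK2 difference was 0.26 and was called (limma adjusted p = 0.017). Its other probe sets differed from each other. Probe set 211804_s_at, with 7.30, 7.39 and 7.06 in controls and 7.55, 7.55 and 7.59 after CDK4/6 siRNA, rose by 0.31 (SE 0.087, limma adjusted p = 0.039 over all probe sets). Probe set 211803_at, with 5.71, 5.76 and 5.57 in controls and 5.68, 5.78 and 5.59 after CDK4/6 siRNA, overlapped and gave 0.0018 (95% interval -0.17 to 0.17).

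**Figure D1:**
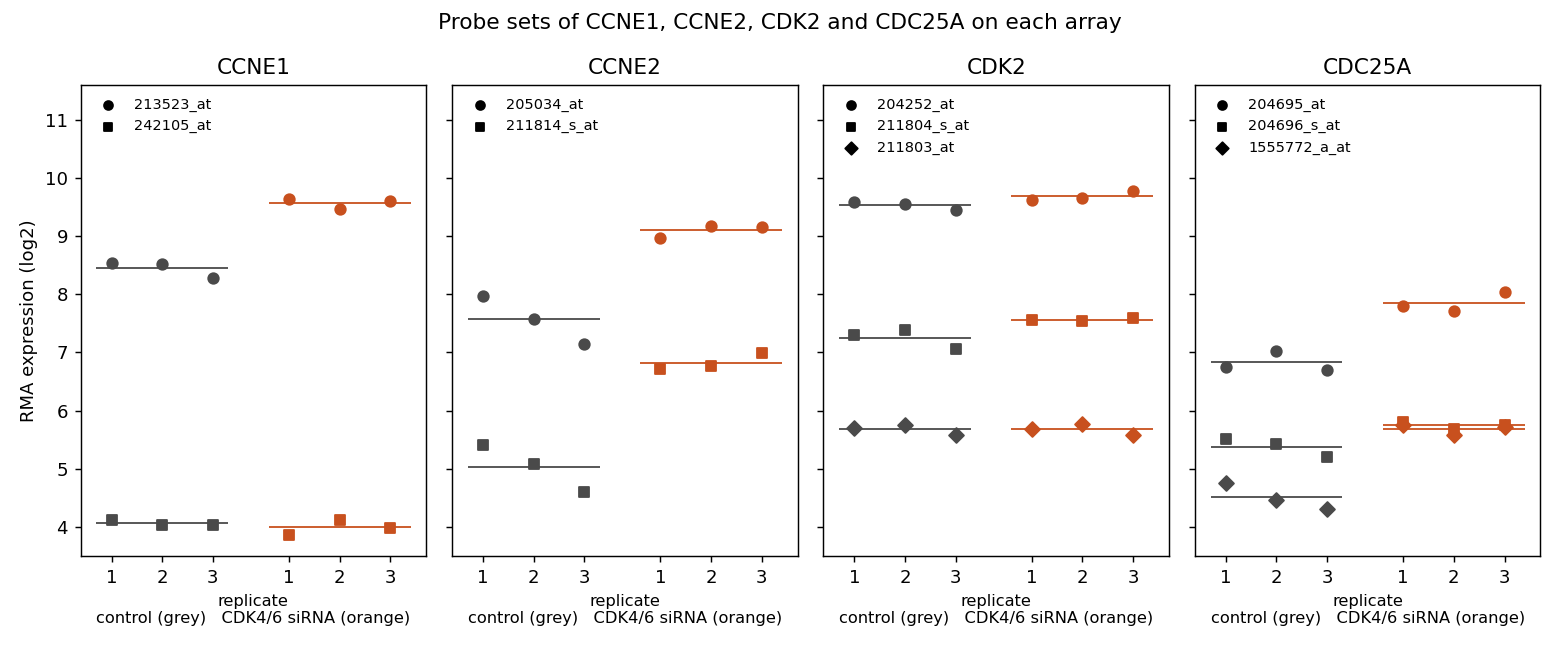
RMA expression (log2) of every probe set of the 4 genes on each of the 6 arrays, control siRNA in grey and CDK4/6 siRNA in orange, with horizontal lines at the group means and a marker shape for each probe set. The brightest probe sets of CCNE1, CCNE2 and CDC25A are separated between groups by 0.92, 0.99 and 0.68, and that of CDK2 by 0.025.

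Over all 10 member probe sets, 7 were called higher and 0 lower, where 17.0% of all probe sets were called, 8.86% higher and 8.17% lower. In 8 of the 10 the treated arrays lay wholly above the controls, which held for 16.1% of all probe sets, and 16.5% lay wholly below. A two-sided exact permutation test gave p = 0.1 for each of those 8, the smallest that 3 arrays against 3 can give. The 2 probe sets whose groups overlapped, 242105_at for CCNE1 and 211803_at for CDK2, had mean levels of 4.03 and 5.68. Whether signal level plays a part in these values was not tested.

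**Figure D2:**
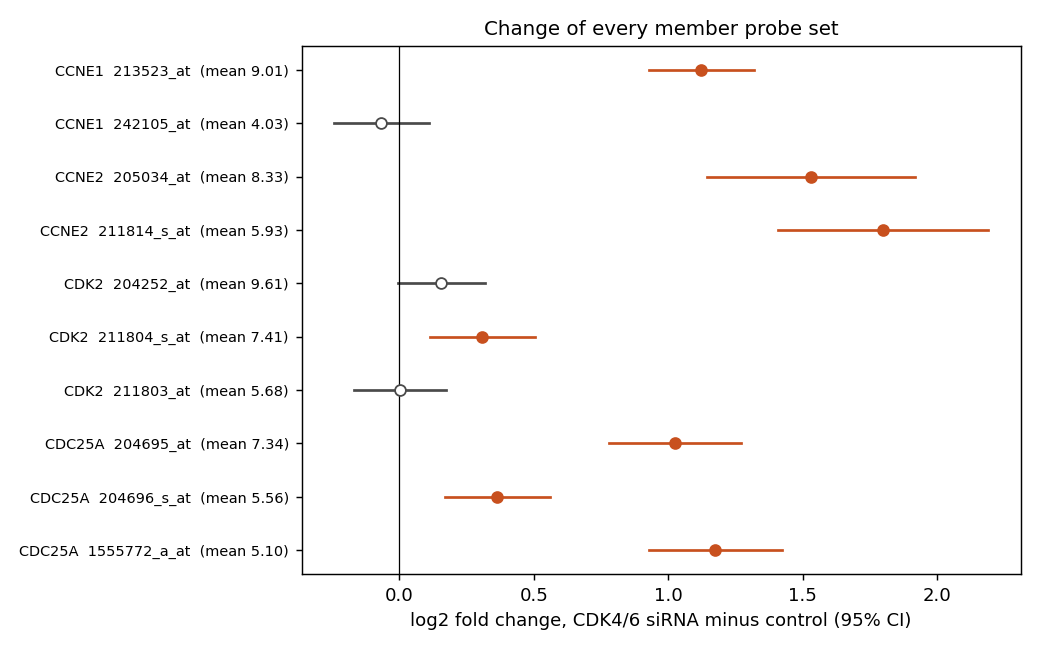
Log2 fold change of each member probe set with its 95% confidence interval from the limma fit over all probe sets; filled orange points passed an adjusted p of 0.05 and open grey points did not, and the mean level over the 6 arrays is given beside each name. The 2 CCNE2 probe sets lie furthest to the right, at 1.53 and 1.80.

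Whether the E-type cyclins changed by different amounts was tested on their difference within each array. CCNE2 minus CCNE1 was -0.57, -0.93 and -1.13 on the control arrays and -0.67, -0.29 and -0.45 on the CDK4/6 siRNA arrays. The level of this difference has no meaning across probe sets, and only its shift is read. The groups overlapped, the shift was 0.41 towards CCNE2, and a two-sided exact permutation test gave p = 0.2 (n = 3 per group), where the smallest possible is 0.1. At this number of arrays the test could not have passed 0.05, so it does not settle whether their rises differ. When each gene's probe sets were averaged the shift was 1.14, since the flat second CCNE1 probe set then counts.

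The control arrays differed among themselves in these genes. Control replicate 3 was the lowest control for all 4 genes and for 9 of the 10 probe sets, and it was the lowest for 40.1% of all genes. CCNE2 had the second highest SD among controls of all 19775 genes, 0.41 against a median of 0.077, while its SD over the CDK4/6 siRNA arrays was 0.12. Both CCNE2 probe sets placed the controls in the same order, with ranges of 0.82 and 0.81. CDC25A and CCNE1 had control SDs of 0.18 and 0.14, at the 93.0th and 84.9th percentile of all genes, and CDK2 had 0.074, at the 47.2nd. Without control replicate 3 the changes were 1.32 for CCNE2, 1.04 for CCNE1, 0.96 for CDC25A and 0.11 for CDK2, and the first 3 were still called (limma adjusted p at most 0.0022). The part of this spread in the size of the changes was not tested further.

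**Figure D3:**
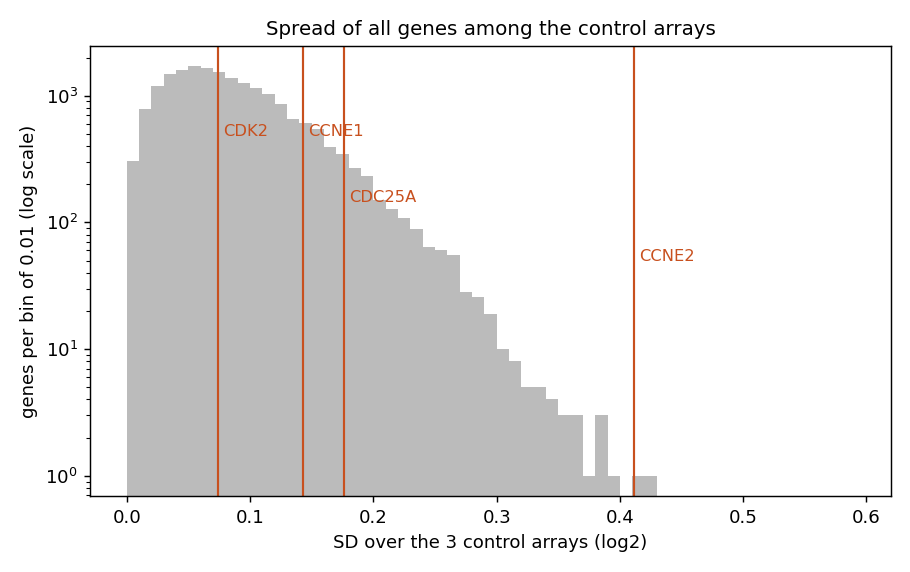
Histogram of the SD over the 3 control arrays (log2, bins of 0.01, number of genes on a log scale) for all 19775 genes, with vertical lines at the 4 members. CDK2 at 0.074 lies near the median gene and CCNE2 at 0.41 lies at the far right end.

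The genes around the module were taken from 8 lists written from general knowledge and are described by counts and medians. These stand beside 14.0% of all genes called higher and 12.9% lower. Counts with the spike-in scaling stand beside 4731 of 19775 genes called higher and 1320 lower in that setting. In the list of cyclin D, its kinases and their INK4 inhibitors 2 of 8 genes rose and 4 fell, with a median of -0.20. Cyclins D1 and D3, the partners of CDK4 and CDK6, rose: CCND1 by 0.93 and CCND3 by 0.76. Besides both kinases, the INK4 inhibitors CDKN2B and CDKN2D fell, by 0.61 and 0.41 (limma adjusted p at most 0.003 for these 4 genes). The counts were also 2 and 4 with the spike-in scaling, and 2 and 2 among genes with a plain-name probe set, where the median was -0.093.

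Of 7 measured genes in a list of those that restrain CDK2 and their relatives, 3 fell, 1 rose and the median was -0.13. Under the spike-in scaling 2 were lower and 2 higher with a median of -0.018, and among genes with a plain-name probe set 2 were lower and 1 higher with a median of -0.50. The inhibitors p57 and p27, which bind cyclin E-CDK2 directly, both fell. CDKN1C (p57) had 9.77, 9.83 and 9.83 in controls and 8.50, 8.35 and 8.34 after CDK4/6 siRNA, and fell by 1.41 (SE 0.063). CDKN1B (p27) had 10.31, 10.39 and 10.61 in controls and 9.50, 9.59 and 9.58 after CDK4/6 siRNA, and fell by 0.88 (SE 0.082). The groups of neither gene overlapped, and limma adjusted p was at most 0.00015. CDKN1A (p21), the third of this inhibitor family, gave -0.043 (limma adjusted p = 0.71), with controls of 10.48, 10.54 and 10.40 and treated arrays of 10.52, 10.37 and 10.40 that overlapped. WEE1, the kinase that adds the phosphates CDC25A removes, gave -0.13 (limma adjusted p = 0.10). It was called with trend and robust options and without variance moderation. Its relative PKMYT1 gave 0.23 (limma adjusted p = 0.073) and was called with the spike-in scaling (0.34), with trend and robust options and with array weights. CABLES1, which promotes inhibitory phosphorylation of CDK2, rose by 0.46. CDKN3, a phosphatase of the activating site of CDK2, was called lower at -0.24, a call lost without control replicate 2 (-0.22) and under the spike-in scaling (-0.13).

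In a list of 10 other activators and partners of CDK2 and their relatives, 1 rose and 2 fell, with a median of -0.084 (0.024 with the spike-in scaling). CCNH, part of the kinase that phosphorylates the activating site of CDK2, rose by 0.27, while its kinase CDK7 gave 0.017 and its assembly factor MNAT1 gave 0.046. CCNA2, the cyclin that takes over CDK2 in S phase, did not follow the E-type cyclins: it had 10.47, 10.43 and 10.34 in controls and 10.22, 10.24 and 10.32 after CDK4/6 siRNA, a difference of -0.15 (limma adjusted p = 0.10; called with trend and robust options). Neither relative of CDC25A rose. CDC25C, which acts on CDK1 in mitosis, fell by 0.59 (SE 0.060), though on its plain-name probe set it was -0.058, which did not pass. CDC25B was called lower at -0.19 (limma adjusted p = 0.029). That call ended under the spike-in scaling (-0.078), and also without any of control replicates 2 (-0.17) and 3 (-0.18) or CDK4/6 siRNA replicates 1 (-0.20), 2 (-0.19) and 3 (-0.17). CKS1B, a small CDK-binding protein, gave -0.16 and did not pass (limma adjusted p = 0.073), but was called without control replicate 3 (-0.20) and under 5 of the other settings, such as quantile normalisation (-0.19).

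**Figure D4:**
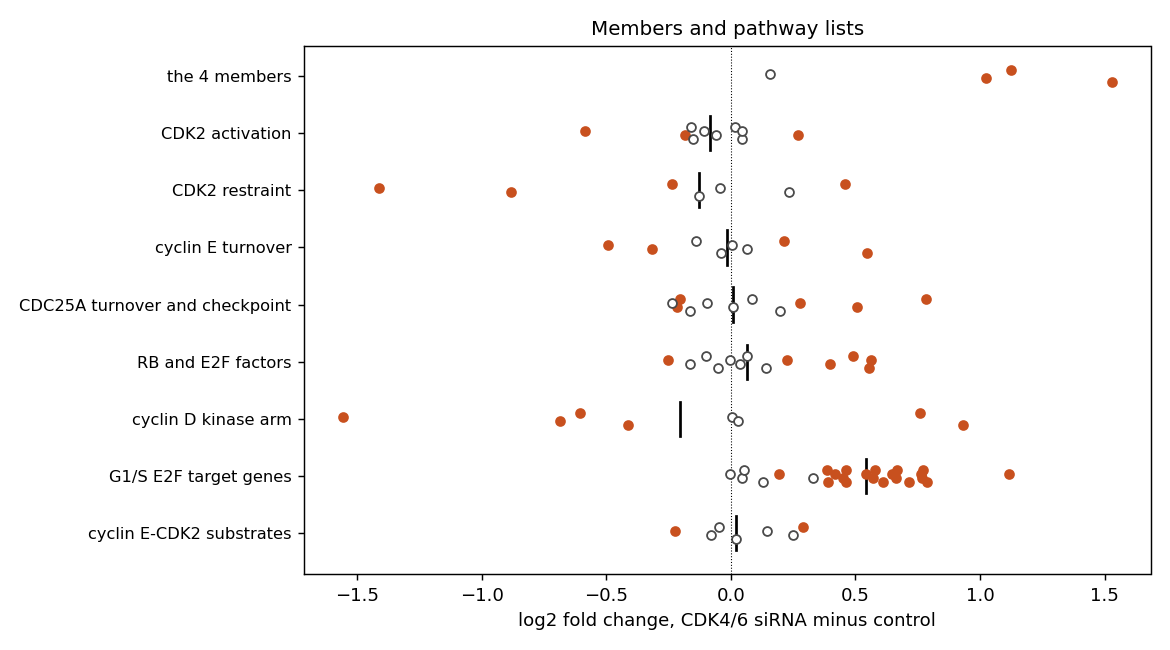
Log2 fold change of the 4 members and of every measured gene of the 8 lists, 1 row per list, with orange points called at a limma adjusted p under 0.05, open points not called and a black bar at each list's median. The G1/S E2F target genes have their median at 0.54, and the medians of the 7 other lists lie between -0.20 and 0.064.

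Genes of cyclin E degradation were split, with 2 of 8 higher and 2 lower and a median of -0.017. FBXW7, the F-box protein that recognises phosphorylated cyclin E, gave -0.039 (limma adjusted p = 0.73), with controls of 8.28, 8.38 and 8.31 and treated arrays of 8.18, 8.31 and 8.35. SKP2, the F-box protein that targets p27 and also binds free cyclin E, rose by 0.54 (SE 0.081), from 9.59, 9.51 and 9.31 to 9.94, 10.05 and 10.06. GSK3B, a kinase that marks cyclin E for FBXW7, fell by 0.31, and USP28, a deubiquitinase that opposes FBXW7, fell by 0.50 (limma adjusted p at most 0.0033). GSK3B lost its call with the mean of its probe sets (-0.076), and USP28 lost it without variance moderation. CUL1, the scaffold of these ligases, was called higher at 0.21, but lost the call without control replicates 2 (0.22) or 3 (0.18) or CDK4/6 siRNA replicates 1 (0.21) or 3 (0.19), and gave -0.075 on its plain-name probe set. CUL3, which acts on cyclin E outside CDK2 complexes, gave -0.14 and did not pass (limma adjusted p = 0.083; called under 4 of the other settings, such as quantile normalisation at -0.16).

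In the list of checkpoint and degradation genes that act on CDC25A 3 of 11 were higher and 2 lower (4 and 0 with the spike-in scaling), with a median of 0.0098. ATR, the kinase that responds to stalled forks, rose by 0.78 (SE 0.091), from 8.41, 8.30 and 8.04 to 8.98, 9.06 and 9.05. CLSPN, the adaptor between ATR and CHK1, rose by 0.51, a call lost without variance moderation. CHEK1, whose kinase CHK1 phosphorylates CDC25A for degradation, gave 0.20 and did not pass (limma adjusted p = 0.13; called with the spike-in scaling, at 0.30). BTRC and FBXW11, the F-box proteins that recognise phosphorylated CDC25A, gave 0.0098 and -0.096 and did not pass. The other 3 calls were weak. TOPBP1 (0.28) lost its call without control replicate 3 (0.18) or CDK4/6 siRNA replicates 1 (0.30), 2 (0.29) or 3 (0.24). CCNF (-0.22), an F-box protein, lost it without control replicates 1 (-0.20) or 2 (-0.19) or CDK4/6 siRNA replicates 1 (-0.21) or 3 (-0.22), and ATM (-0.20) lost it without any array but control replicate 3, at -0.16 to -0.23.

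Of 13 retinoblastoma family and E2F genes 5 rose and 1 was lower, with a median of 0.064. The transcription factors E2F2 (0.56), E2F3 (0.49) and E2F5 (0.40), and TFDP1 (0.55), the partner they need to bind DNA, rose (limma adjusted p at most 0.0047), though E2F2 lost its call without variance moderation. E2F1, which activates CCNE1 and CDC25A, gave 0.035 (limma adjusted p = 0.70). RB1, which encodes the retinoblastoma protein, was called lower at -0.25. The RB1 call was lost under the spike-in scaling (-0.14). It was also lost without control replicates 1 (-0.24) or 3 (-0.21) or CDK4/6 siRNA replicates 1 (-0.21) or 2 (-0.26). In the list of 25 other genes that E2F switches on at G1/S, 20 rose and 0 fell, with a median of 0.54. Its members included MCM10 (1.11), TIPIN (0.77), UNG (0.71), CDC6 (0.67) and GINS3 (0.66), which act in replication, fork protection or DNA repair. CDT1, a licensing factor, gave 0.052, and RRM2, a subunit of ribonucleotide reductase, gave -0.0042, and neither passed.

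The control arrays were spread in this list as they were in CCNE2. Control replicate 3 was the lowest control in 25 of 25 of these genes, against 40.1% of all genes. The control SD was above the CDK4/6 siRNA SD in 22 of the 25, against 51.8% of all genes, with medians of 0.18 and 0.074. Without control replicate 3 the list median was 0.43 and 19 genes rose. Without variance moderation 10 rose, where 4036 genes in all were called, against 5307. With plain-name probe sets 12 rose, where 3830 genes in all were called. That setting leaves out genes without such a probe set, so its count may be out of fewer than 25.

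Of 7 substrates of cyclin E-CDK2, 1 was called higher and 1 lower, beside 26.8% of all genes called, with a median of 0.020. With the spike-in scaling 2 were higher and 0 lower, where 4731 of 19775 genes were called higher and 1320 lower. NPAT, the activator of histone transcription that cyclin E-CDK2 phosphorylates, was higher by 0.29 (SE 0.058, limma adjusted p = 0.0055) and lost the call with the mean of its probe sets (0.14). CCP110, a centriole protein, was called lower at -0.23, a call lost without control replicates 1 (-0.22) or 2 (-0.21) or CDK4/6 siRNA replicates 1 (-0.18) or 2 (-0.23). TICRR, whose phosphorylation by CDK2 helps fire origins, gave 0.25 and did not pass (limma adjusted p = 0.058). It was called with median centring, spike-in scaling, array weights, trend and robust options, without the dimmest genes, and without control replicate 1 (0.34).

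The genes most like each member over the 6 arrays were found by Euclidean distance, with each gene's values taken relative to its own control mean, as a description with no test. Nearest to CCNE1 were TRIM14 (distance 0.13, change 1.13), POLR3B (0.13, 1.06), a subunit of RNA polymerase III, and SH3RF2 (0.15, 1.07). On its plain-name probe set TRIM14 gave 0.14. CCNE2 had no gene as close: GPATCH4 lay at 0.35, WDR77, the partner of the methyltransferase PRMT5, at 0.36 and CTPS1, which makes CTP, at 0.38, with changes of 1.42, 1.38 and 1.38. Nearest to CDC25A were CCN3 (0.23), TMEM201 (0.24) and SLC25A13 (0.25), a mitochondrial aspartate and glutamate carrier, with changes of 1.02, 1.05 and 1.08. CDK2 lay close to CBR1, LMNB2 and ZDHHC7 at 0.056 to 0.066, and all 3 of these had changes of 0.14 to 0.16 that did not pass. CBR1 was dim, with a control mean of 3.94 against 9.53 for CDK2. All 3 were called with the spike-in scaling, and LMNB2 and ZDHHC7 also with trend and robust options. None of the other 3 members was among the 3 nearest genes of a member.

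The 3 calls held under each of the 19 other settings tried, with each gene read from its brightest probe set or the mean of its probe sets. CCNE2 ran from 1.32 to 1.73, CDC25A from 0.85 to 1.13 and CCNE1 from 0.53 to 1.23, with limma adjusted p of at most 0.027. CDK2 ran from 0.11 to 0.26 and was called under 1 of the 19.

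**Figure D5:**
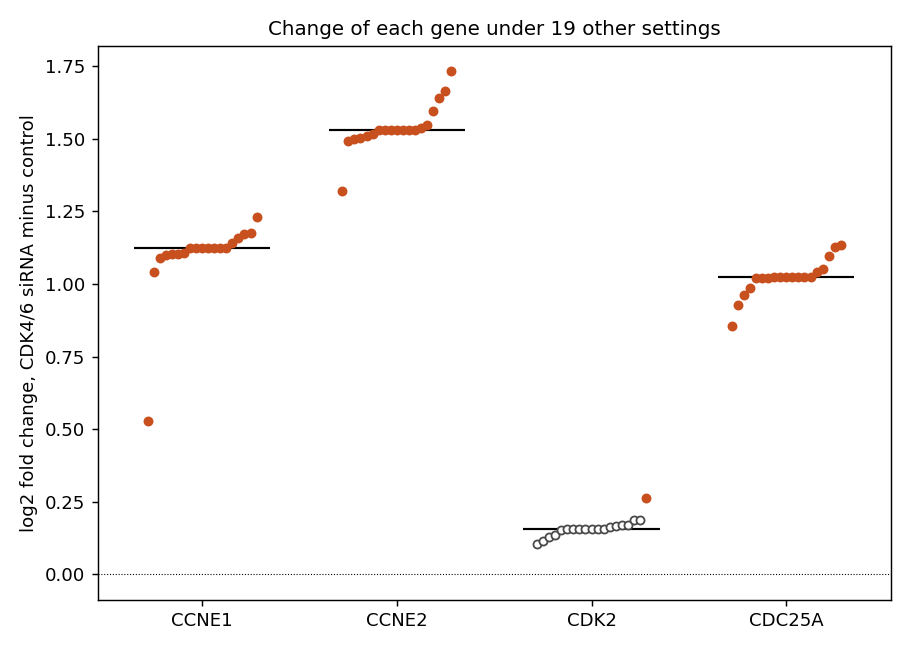
Log2 fold change of each member under 19 other settings (normalisation, choice of probe sets, test, threshold and each array left out), in order of size within a gene, with a black line at the reported value; orange points were called and open points were not. The lowest CCNE1 point, 0.53, is the mean of its probe sets, and the called CDK2 point, 0.26, is the spike-in scaling. Where probe sets were tested separately, the point is the brightest probe set of the gene.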

How the data were processed

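Total RNA of 6 HCT116 cultures was labelled as biotinylated cRNA and hybridised to 1-colour Affymetrix arrays. The authors deposited log2 expression per probe set, made with RMA per the submitters' processing notes, with version and genome build not given in the sources used here. RMA equalises distributions between arrays, so a change common to all RNA is not seen. Precision is limited by having 3 arrays per group. Of 54675 probe sets, 62 were array controls, and 41091 others had 1 gene symbol in the platform annotation. By gene identifier 41037 of these were found in a RefSeq table (GRCh38.p14, used for names), and 0 symbols changed. The brightest probe set per gene gave 19775 genes, with no filter on dim genes.

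Group was the only term of the model, fitted in R 4.3.3 with limma 3.58.1 (lmFit, eBayes). It was tested on simulated data. Members and lists were chosen with earlier results of these data known. Genes were named by rule: the members, 13 fixed regulators, up to 5 genes per list with the smallest adjusted p, and the 3 genes nearest to each member; other list genes are named for their role and were chosen after their values were seen. Some genes written for the lists are not reported here, and counts are over those measured. Markers of fibroblasts, leukocytes and endothelium had median levels of 5.17, 4.02 and 4.80. As alternatives, the fit was run with a replicate block, with quantile, median, cyclic loess or spike-in scaling, without the dimmest genes, with other probe set choices (mean, separate, or plain names without the suffix for shared probes), with array weights, trend and robust options or no variance moderation, at a threshold of 0.01, and with each array left out. Figures used matplotlib 3.10.9.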

Additional observations from a re-analysis of the deposited data

How the results depend on the processing

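CCNE1, CCNE2 and CDC25A kept their direction and their call in all 19 alternatives, and CDK2 kept its direction. With probe sets tested separately or restricted to plain names, each member was still read from its brightest probe set. These settings therefore do not test that choice. Tested separately, the dimmer CCNE1 probe set 242105_at gave -0.067 and was not called. On its brightest probe set or the mean of its probe sets, CDK2 was called only with the spike-in scaling (0.26, limma adjusted p = 0.017). The range of adjusted p over these alternatives was 0.017 to 0.36. Its dimmer probe set 211804_s_at was called in the fit over all probe sets (0.31, limma adjusted p = 0.039). With 1 array left out CDK2 ran from 0.11 to 0.19. The shift of CCNE2 minus CCNE1 moved from 0.41 to 1.14 with the mean of all probe sets. With every probe set tested separately 9302 of 54613 probe sets were called (17.0%). At a threshold of 0.01 the number of called genes was 3326, against 5307 of 19775 genes as reported (26.8%). CUL1 turned to -0.075 on its plain-name probe set. The values gave no sign that replicate numbers pair the arrays: deviations of same-numbered arrays from their group means correlated at -0.010, -0.12 and -0.0066. Such correlations cannot show whether same-numbered cultures were handled together, which the labels do not say. With the replicate block 4738 genes were called, with no member changing its call. With 3 arrays per group an exact test cannot pass 0.05.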
